A study of Mus musculus with 2 samples.

Results

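The Mir379 to Mir410 array is a run of microRNA (miRNA) genes inside the imprinted Dlk1-Dio3 domain of mouse chromosome 12. Its members were taken by position: all miRNA genes of the GENCODE M21 annotation on the plus strand whose start lies from 109709060 to 109747960 of chromosome 12 in the mm10 assembly. The rule gave 39 genes of the 2202 miRNA genes counted, and it used no measured value. Small RNA below 30 bases was sequenced from the gastrocnemius, the large calf muscle, of female B6CASTF1/J mice at 4 days of age. These animals are first-generation hybrids of C57BL/6J and CAST/EiJ, and no treatment is named. The data form 1 group of 2 libraries, with no control samples, numbered Female 03 (library 1) and Female 04 (library 2) in the labels, which list both under the same donor identifier. Whether the libraries come from separate animals cannot be settled from these labels. There is no second condition to compare, and the differences between the libraries may in part be technical.

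In an imprinted domain the copy inherited from one parent is expressed and the other is silent. In Dlk1-Dio3 the protein-coding genes Dlk1, Rtl1 and Dio3 are expressed from the paternal chromosome, and the noncoding RNAs Meg3, Rian and Mirg and the miRNAs from the maternal one. The array's miRNAs are cut out of long maternal transcripts as hairpins, and each hairpin can give a mature miRNA from its 5′ arm and another from its 3′ arm. The array is known for high levels in the embryo, placenta and brain. The name of a hybrid strain puts the mother's strain first. The deposited counts do not separate the parental alleles, so imprinting itself was not measured.

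Reads assigned to miRNA genes on their own strand numbered 5569392 of 10426665 in library 1 and 4336759 of 8487769 in library 2. Reads with several matching places, which the tables assign to no gene, made up 36.9% and 37.6% of all reads. Levels are CPM, each gene's count scaled to the library's total of gene counts. Genes that reached 2 CPM in each library count as detected here, and there were 335 of them. The tissue's label was checked against its markers: 8 of the 9 skeletal muscle miRNA genes listed were detected, and their summed level was 130998 CPM (library 1) and 120702 CPM (library 2). Nearly all of it was Mir206 (129336 and 119323 CPM), and the other 8 genes summed to 1662 and 1379 CPM. The neural list summed to 1226 and 1555 CPM, with 6 of 15 genes detected. Its highest genes were Mir128-1 (532 and 668 CPM), Mir338 (346 and 328 CPM) and Mir128-2 (306 and 340 CPM). Mir124a-2, Mir124a-3 and Mir9-2 of the same list had no count in either library. Mir124a-1 had 0 and 1 counts, Mir9-1 had 0 and 3, and Mir9-3 had 0 and 10. Copies of a gene with the same mature sequence, in the muscle and the neural list alike, can lose reads to the multimapping line.

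The sequences below are the mature miRNAs that the RefSeq table holds for the 5 members with the highest levels, each written 5′ to 3′ as in RefSeq for GRCm38.p6, with the seed (bases 2 to 8, the part that pairs with target messages) in capitals. They show what the most abundant hairpins can release, as far as it is listed. For Mir487b only the 5′ arm is listed, so its products may be incomplete here. The counts are per hairpin, so how much came from either arm was not measured.
mmu-miR-411-5p: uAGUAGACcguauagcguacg
mmu-miR-411-3p: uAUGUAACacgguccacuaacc
mmu-miR-487b-5p: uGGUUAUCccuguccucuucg
mmu-miR-379-5p: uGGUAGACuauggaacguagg
mmu-miR-379-3p: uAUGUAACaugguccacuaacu
mmu-miR-541-5p: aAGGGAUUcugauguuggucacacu
mmu-miR-541-3p: uGGCGAACacagaauccauacu
mmu-miR-382-5p: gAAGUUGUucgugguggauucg
mmu-miR-382-3p: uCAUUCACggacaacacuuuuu

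These come from hairpins at chr12:109710175-109710256 (Mir411), chr12:109727333-109727414 (Mir487b), chr12:109709060-109709125 (Mir379), chr12:109742409-109742498 (Mir541) and chr12:109733771-109733846 (Mir382), all on the plus strand. RefSeq gave 71 mature sequences for 38 of the 39 members, 19 to 25 bases long. It listed both arms for 33 members and a single arm for 5 (Mir376c, Mir487b, Mir539, Mir485 and Mir453), so counts of seeds cover listed arms only. They held 65 different seeds, of which 59 occurred once and 6 were shared by a pair of members. The 5′ base was U in 30 of the sequences, A in 27, G in 10 and C in 4. By the listed sequences the array is thus mostly a collection of distinct seeds, and the main exception is the pair at its start. mmu-miR-379-3p and mmu-miR-411-3p have the same seed, AUGUAAC, and differ at 2 of 22 bases (U10C and U22C, counted from the 5′ end, miR-379-3p first). Their 5′ arms differ at 7 of 21 bases, and 1 of these differences, G2A, falls inside the seed and gives each a seed of its own.

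The array as a whole held 1218071 counts in library 1 and 990193 in library 2. This was 21.9% and 22.8% of all miRNA gene counts, a mean of 22.4% ± 0.680 (SD, n = 2). Of the 39 members, 37 were detected. The median level of the detected members was 1042 CPM in library 1 and 968 CPM in library 2, beside 121 and 119 CPM over all 335 detected genes and 81.2 and 96.4 CPM over the detected genes outside the array. The quartiles of the detected members lay at 485 ± 38.4 and 4188 ± 34.7 CPM (SD, n = 2). In both libraries 32 members reached 100 CPM, 26 ranked among the 100 highest miRNA genes by mean level and 4 among the 20 highest. Shares, medians and ranks cover assigned reads only. Genes that lose reads to the multimapping line, in or outside the array, can stand too low in them.

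The total rested on few members. Mir411 had 69234 CPM in library 1 and 76880 CPM in library 2. By assigned reads it had rank 2 among all miRNA genes, and it held 32.7% ± 1.42 of the array's counts. Mir487b had 42350 and 46506 CPM, rank 6 among all genes. Mir379, the gene that opens the array, had 30148 and 31059 CPM, rank 9. Together these 3 genes held 66.2% ± 2.01 of the array's counts and 14.8% ± 0.899 of all miRNA gene counts, and the other members held 7.54% ± 0.219 of all miRNA gene counts (SD, n = 2 for each). Mir541 had 10222 and 12519 CPM. Mir382 had 10631 and 10971 CPM, so Mir541 and Mir382 changed places between the libraries. The 5 highest members held 76.1% ± 2.54 of the array and the 10 highest 87.9% ± 1.01.

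Below these 5 genes the levels stepped down, from 10801 ± 241 CPM for Mir382 to 6067 ± 858 CPM for Mir409 (SD, n = 2). Mir409 had 6674 CPM in library 1 and 5460 CPM in library 2, and Mir299a had 6421 and 5233 CPM. Mir381 stood at 6350 and 5056 CPM. Each of these 3 was lower in library 2. Mir376a (4793 and 4163 CPM), Mir376c (3942 and 4573 CPM) and Mir380 (4212 and 3543 CPM) followed. Mir376a stood above Mir380 in both libraries, while Mir376c was the lowest of the 3 in library 1 and the highest in library 2. Mir369 had 3377 and 3299 CPM. Mir154, the gene after which the largest family of the array is named, had 3126 and 2759 CPM. Mir134, whose miRNA is known for limiting the size of dendritic spines in neurons, had 1914 and 2145 CPM. Mir543 had 1940 and 1567 CPM. These 15 genes held 94.2% ± 0.424 of the array's counts (SD, n = 2).

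The other detected members ran from 1721 ± 80.7 CPM for Mir300 down to 3.69 ± 0.650 CPM for Mir1197 (SD, n = 2). By mean level, 5 members stood at 10000 CPM or more, 14 between 1000 and 10000 CPM, 13 between 100 and 1000 CPM and 5 below 100 CPM. These last 5 were Mir3072 (80.3 CPM in library 1 and 57.9 CPM in library 2), Mir758 (10.6 and 10.1 CPM), Gm27379 (9.52 and 8.07 CPM), Mir544 (4.49 and 3.92 CPM) and Mir1197 (3.23 and 4.15 CPM). Mir1197 had 18 counts in each library, and its exact 95% counting intervals were 1.92 to 5.11 CPM and 2.46 to 6.56 CPM. The intervals of Mir544 were 2.90 to 6.63 CPM and 2.28 to 6.28 CPM, and those of Mir758 and Gm27379 overlapped each other in both libraries. All such intervals cover counting error only, and no step taken here told molecules from their copies. Mir654 and Mir453 had 0 counts in both libraries, a result that a level as high as 0.539 CPM (library 1) or 0.692 CPM (library 2), worth 3 counts, could still give. Between the highest and the lowest detected member the level differed 21422-fold in library 1 and 19612-fold in library 2.

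The order of the members was similar in both libraries. The same 5 genes were the highest in both libraries, and 9 of the 10 highest were shared. Of the 37 detected members, 14 had the same rank among them in both libraries, and none moved by more than 3 places. Between neighbours in the order of levels, 23 of 36 pairs had the same order in both libraries and 13 changed places, such as Mir541 and Mir382. In 19 of the pairs the ranges over the libraries did not overlap.

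**Figure D1:**
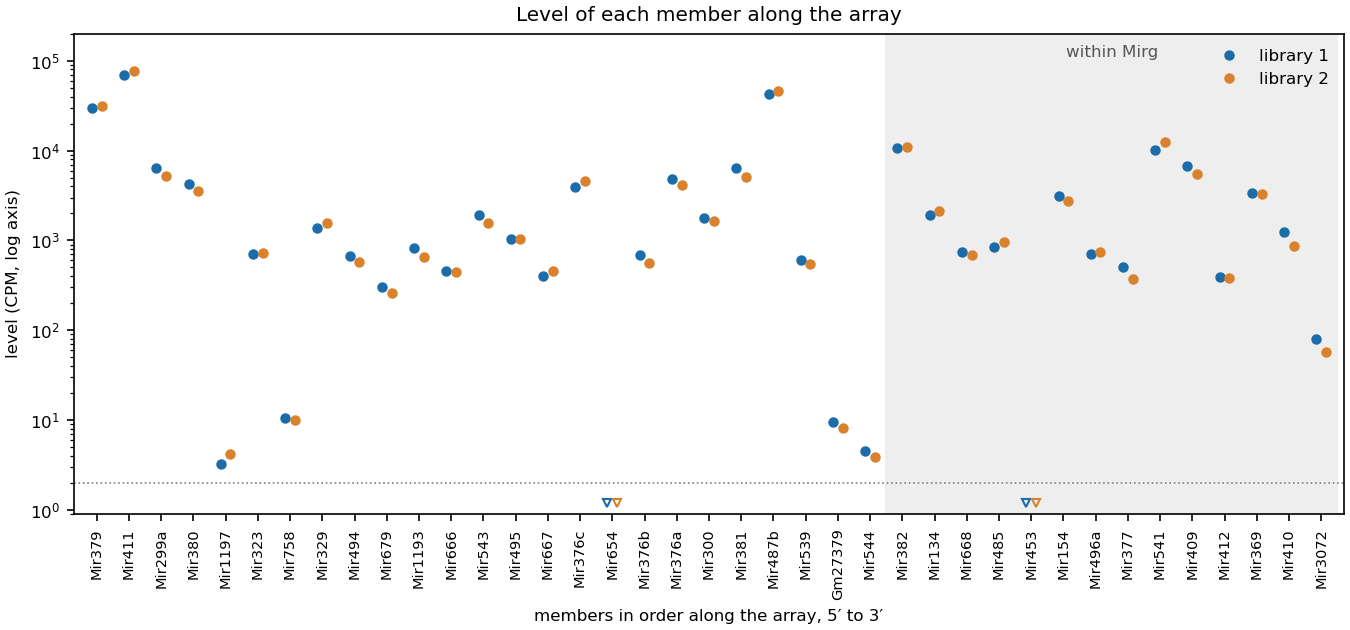
Level of each of the 39 members in CPM on a log axis, in the order of their position along the array, with a point for each library. The dotted line marks the detection level of 2 CPM, open triangles mark members with 0 counts and grey shading marks members within Mirg. Mir411, Mir487b and Mir379 stand highest, and Mir1197, Mir758, Gm27379 and Mir544 lie between 3.23 and 10.6 CPM, far below the genes next to most of them.

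Along the chromosome the level did not follow a gradient. The array spans 38.9 kb, with a median of 632 bases between the starts of successive genes and from 20 to 4368 bases between successive hairpins. Mir379 and Mir411, its first 2 genes, together held 46.4% of the array's counts, and Mir487b lies near its middle. Over the 37 detected members, Spearman's rho between the distance from the start of Mir379 and the level was -0.06 (a description across genes that share libraries, depth and origin).

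Adjacent genes often differed widely. Of 34 neighbouring pairs in which both genes were detected, the median difference in mean level was 3.98-fold, 11 pairs differed by more than 10-fold and 6 by less than 2-fold. The widest step was the 2569-fold rise from Mir544 to Mir382, at the edge of Mirg. Mir1197 lay between steps of 1051-fold (down from Mir380) and 192-fold (up to Mir323). Mir758 lay between steps of 68.4-fold (down from Mir323) and 143-fold (up to Mir329). Mir487b stood 77.4-fold above Mir539, the next gene. Mir409 and Mir412, whose hairpins are 52 bases apart, differed 17.2-fold in library 1 and 14.4-fold in library 2. Mir668 and Mir485 stood close to each other, 1.28-fold apart.

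**Figure D2:**
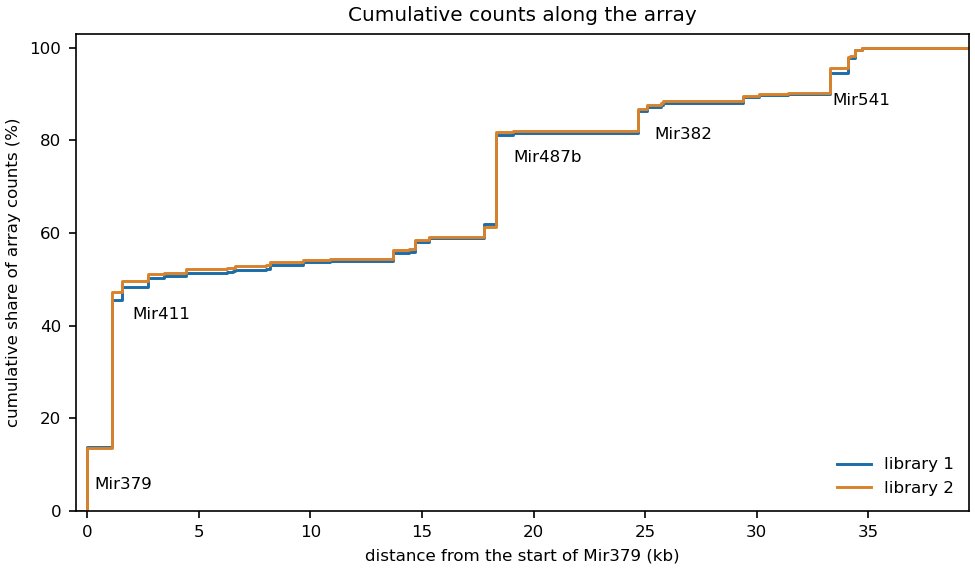
Cumulative share of the array's counts, in percent, against the distance in kb from the start of Mir379, for each library. The curves rise steeply at Mir379 and Mir411, which reach 46.4% on average, and again at Mir487b, and the 2 libraries run close together along the whole array.

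The last stretch of the array lies within Mirg, a noncoding RNA gene annotated at chr12:109729764-109749460 on the plus strand. The 25 members before it held 81.7% ± 0.311 of the array's counts, and the 14 members within it 18.3% ± 0.311 (SD, n = 2). Of those 14 hairpins, 4 lie in an exon of an annotated Mirg transcript, 5 partly in an exon and 5 in an intron. The split of the counts did not carry over to a typical member. The median level of the detected members before Mirg was 929 CPM in library 1 and 869 CPM in library 2, and within Mirg 1240 and 968 CPM.

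By sequence family, 37 of the members fall into groups of very unequal weight. The mir-379 group (Mir379, Mir411, Mir380, Mir758 and Mir1197) held 48.1% of the array's counts on average, and its levels ran from Mir411, the highest member of the array, to Mir1197, the lowest detected one. The mir-154 family had 14 of 16 listed genes in the tables, all detected. It held 35.8% of the array, with Mir487b highest and Mir377 (512 CPM in library 1 and 371 CPM in library 2) lowest. The mir-376 family, whose primary transcripts are known for A-to-I editing, held 4.19% in 3 genes, with Mir376a highest and Mir376b (684 and 567 CPM) lowest. The mir-329 group held 1.91%. Its highest gene was Mir543 and its lowest Mir495 (1042 and 1024 CPM). The remaining list of 13 members, which shares Mir323 with the mir-154 family, held 10.3%. Its highest gene was Mir541 and its lowest detected member Mir3072. Mir544 and Gm27379 are in none of these lists.

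Relatives with nearly the same mature sequence stood at different levels. The following miRNAs share a seed with another member or differ from it at few bases, with the seed in capitals.
mmu-miR-381-3p: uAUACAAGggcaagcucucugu
mmu-miR-300-3p: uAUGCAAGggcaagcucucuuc
mmu-miR-376c-5p: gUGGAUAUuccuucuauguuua
mmu-miR-376b-5p: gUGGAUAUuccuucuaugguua
mmu-miR-1193-5p: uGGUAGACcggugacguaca
mmu-miR-1197-5p: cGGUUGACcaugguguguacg
mmu-miR-758-5p: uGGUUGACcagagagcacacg

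miR-381-3p and miR-300-3p differ at 3 of 22 bases, of which A4G falls in the seed, and Mir381 stood 3.57-fold above Mir300 in library 1 and 3.04-fold in library 2. miR-376c-5p and miR-376b-5p have the same seed and differ at 1 of 22 bases (U19G). Mir376c stood 5.76-fold above Mir376b in library 1 and 8.06-fold in library 2. The seed GGUAGAC of miR-379-5p recurs in miR-1193-5p, but Mir379 supplied 97.6% of the counts of the 2 hairpins. The seed AUGUAAC was carried by the highest and the third highest member: Mir411 and Mir379 together had 99383 CPM in library 1 and 107940 CPM in library 2. At the other end, the hairpins that share the seed GGUUGAC, Mir1197 and Mir758, had 13.8 and 14.3 CPM together. The seeds GGUUGCC (miR-453 and miR-496a-5p) and GGUUGUC (miR-494-5p and miR-410-5p) were the remaining shared ones. Mir496a supplied all counts of the first pair, and the second pair had 1910 and 1437 CPM. These sums are of hairpin counts from both arms and are upper limits only for the assigned reads of the arm that carries the seed. Reads that fit several places are not in them.

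Sequence shared between hairpins can bear on these levels, since a read that fits several places was not assigned to any gene. Of the members, 6 shared a run of 18 or more bases with another counted gene (Mir411, Mir758, Mir299a, Mir376c, Mir376b and Mir487b), and 25 shared no run of 14 bases. The hairpins of Mir411 and Mir758 are shown because they combine a 21-base shared run, in capitals, with a level that differed 6535-fold in library 1 and 7578-fold in library 2. They are written 5′ to 3′ from RefSeq for GRCm38.p6, plus strand, at chr12:109710175-109710256 and chr12:109712810-109712890.
Mir411: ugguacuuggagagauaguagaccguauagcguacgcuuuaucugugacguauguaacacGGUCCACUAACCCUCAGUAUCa
Mir758: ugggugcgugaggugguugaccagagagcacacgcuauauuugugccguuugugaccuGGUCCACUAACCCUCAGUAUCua

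The run covers bases 61 to 81 of Mir411 and bases 59 to 79 of Mir758. It takes in the end of miR-411-3p and the bases after it, and likewise the end of miR-758-3p and the bases after it. The listed mature sequences of Mir411 shared at most 12 bases with another counted gene, and those of Mir758 and Mir487b at most 13. The part of shared sequence in the gap between Mir411 and Mir758 was not tested. At the level of mature miRNAs, runs of 18 or more bases were shared by 4 sequences: both arms of Mir299a with Mir299b, the gene on the opposite strand at the same place, and miR-376c-5p with miR-376b-5p.

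Hairpin composition was described for the members that RefSeq holds. Of 36 hairpins, the GC content ran from 29.1% to 72.3% with a median of 43.4%, and the folding energy computed with RNAfold from -16.6 kcal/mol (Mir376a) to -46.7 kcal/mol (Mir3072), with a median of -33.6 kcal/mol. Over the 34 of them that were detected, Spearman's rho with the level was -0.32 for GC content and 0.25 for folding energy. Over all 37 detected members it was -0.30 for hairpin length, which ran from 61 to 123 bases over the array. These weak relations describe genes of the same libraries and are not results of a test.

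**Figure D3:**
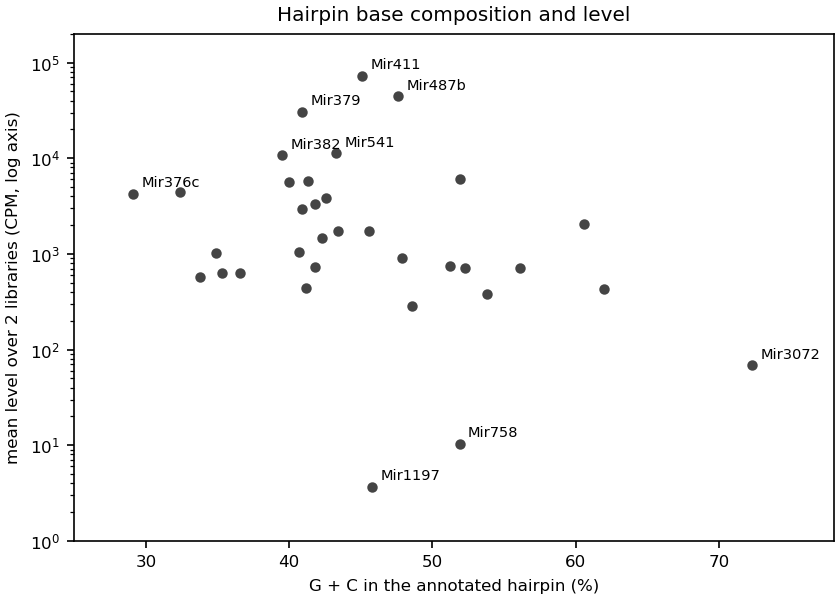
Mean level in CPM on a log axis against the GC content of the hairpin in percent, with a point for each detected member that has a RefSeq hairpin (34 genes). The points scatter widely, with Spearman's rho of -0.32.

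Both libraries were of the same group, so a comparison of them measures spread and not a condition. Each gene's counts were compared by an exact two-sided binomial test given totals scaled with edgeR's TMM factors, adjusted by the Benjamini-Hochberg method over all 335 detected genes at a threshold of 0.05. Of all detected genes 55.5% were called different, 28.7% higher and 26.9% lower in library 2. Of the 37 detected members 29 were called (78.4%), 11 higher (29.7%) and 18 lower (48.6%). With TMM factors taken over all counted genes in place of detected ones, 7 members were called higher and 23 lower. The test counts reads only, so it calls small differences in abundant genes. Members at a mean of 1000 CPM or more were called in 18 of 19 cases, and the 18 detected members below it in 11. The shares called among all detected genes in the same ranges of level were not computed. The 78.4% of members and 55.5% of all genes are thus not set at like levels.

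The differences were small. With TMM factors over detected genes, no member differed by 1.5-fold or more, while 51 of the 335 detected genes (15.2%) did. Neither did any detected gene antisense to Rtl1 or on the Meg3 and Rian side. These counts were made at that scaling only. Mir410 was nearest to the limit (1.47-fold), and it passes the limit with TMM factors over all counted genes. The median level of the members was also higher than that of all detected genes, as given above. The log2 ratio of library 2 to library 1 ran from -0.55 for Mir410 to 0.34 for Mir1197, and the second was not called, with an interval from -0.69 to 1.37. The median over the members was -0.12, beside 0.03 over all detected genes. With TMM factors over all counted genes these medians were -0.19 and -0.04.

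The members that were higher in library 2 included the largest ones. Mir541 had a log2 ratio of 0.27 (0.25 to 0.29), Mir411 of 0.13 (0.12 to 0.14) and Mir487b of 0.11 (0.10 to 0.12). For Mir379 (0.02) and Mir382 (0.02) the call depended on the scaling: it was lost with DESeq2 size factors, and the sign turned with TMM factors over all counted genes. Mir376c (0.19), Mir329 (0.17), Mir485 (0.16), Mir667 (0.15), Mir134 (0.14) and Mir496a (0.09) were also called higher. Mir667 and Mir496a lost the call under TMM over all counted genes, and Mir496a also with DESeq2.

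Of the members called lower, Mir410, with 1240 CPM in library 1 and 858 CPM in library 2, had the lowest log2 ratio, -0.55 (-0.61 to -0.50). Mir3072 had -0.49 (-0.72 to -0.27) and Mir377 -0.48 (-0.57 to -0.40). Mir381, Mir543, Mir1193, Mir299a and Mir409 lay between -0.35 and -0.31, and the other 10 called lower between -0.29 (Mir376b) and -0.06 (Mir369). Mir369 lost its call with library totals. Under all 4 scalings run, 7 members stayed higher (Mir134, Mir329, Mir376c, Mir411, Mir485, Mir487b and Mir541) and 17 stayed lower. Spearman's rho between the ratio and the distance from Mir379 was -0.17 over 37 members, as a description.

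**Figure D4:**
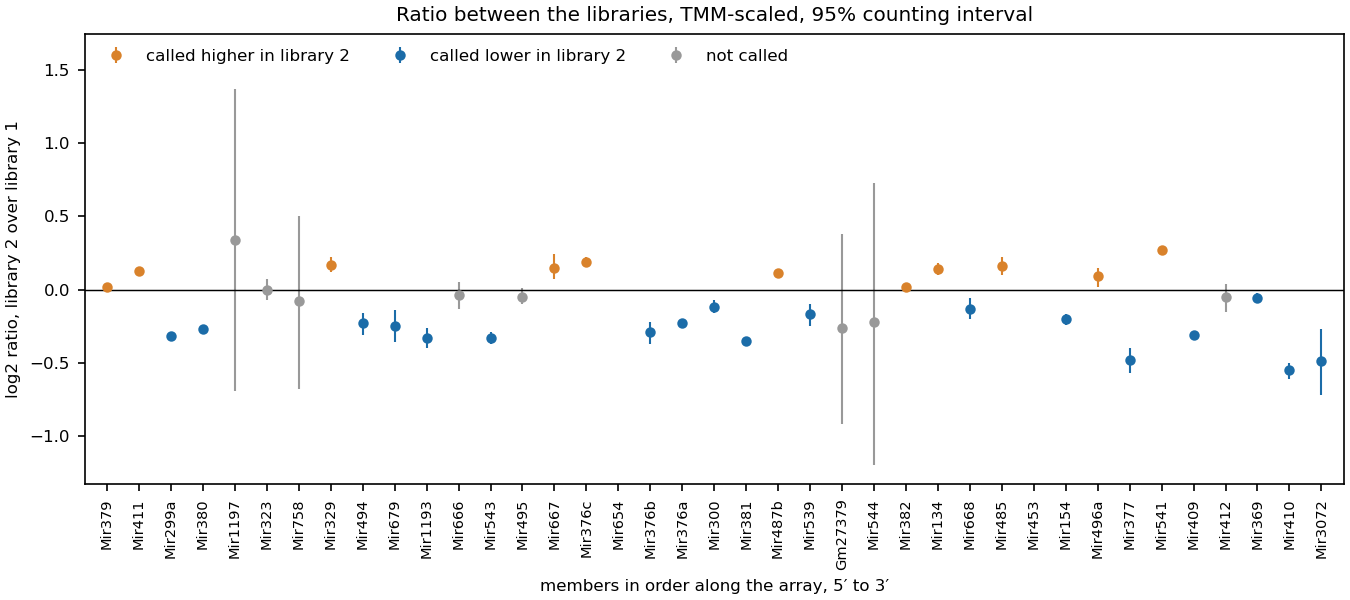
The log2 ratio of library 2 to library 1 for each of the 37 detected members in the order of the array, with the exact 95% counting interval and the colour giving the call. All values lie between -0.55 and 0.34, and the wide intervals belong to Mir1197, Mir758, Gm27379 and Mir544.

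The array's total moved little, since its highest members were higher in library 2 and most others lower. The total had a log2 ratio of 0.04, the 5 highest members 0.11 (0.10 to 0.11), and the array without its 3 highest -0.08 (-0.09 to -0.07). The total without Mir411 was at -0.0034, and with TMM factors over all counted genes at -0.03, so its sign is not set. As shares of the array's counts, 10 members were larger in library 2 and 27 smaller. These shares have a fixed sum. The larger shares of Mir411 (31.7% in library 1 and 33.7% in library 2) and Mir487b (19.4% and 20.4%) therefore lower those of the others. Among families, to be read against the same shares of calls (29.7% higher and 48.6% lower among members), the mir-154 family had 4 genes called higher, 9 lower and 1 not called, and a summed log2 ratio of -0.01. The mir-376 family had 1 higher and 2 lower. The mir-379 group had 2 higher, 1 lower and 2 not called, with a summed ratio of 0.08. The 5 members with another counted gene on the opposite strand (Mir299a, Mir380, Mir376a, Mir539 and Mir409) were all lower in library 2, with a summed ratio of -0.28 (-0.30 to -0.27), beside 48.6% called lower among the detected members and 26.9% among all detected genes.

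Markers of other cell types also differed between the libraries. All values here are library 1 first, and calls and ratios were made with TMM factors over detected genes only. Of the neural list, 5 of the 6 detected genes were called higher in library 2 and none lower, Mir137 among them (33.6 and 178 CPM). The smallest log2 ratio of these 5 was that of Mir128-2, 0.13 (0.03 to 0.23). Over all detected genes 28.7% were called higher and 26.9% lower. Mir126a of the endothelial list had a log2 ratio of -0.45. The smooth muscle list summed to 25509 and 29100 CPM, with Mir143 called higher (log2 ratio 0.17) and Mir145a lower (-0.12). The liver miRNA Mir122 had 169 and 824 CPM. The leukocyte list summed to 657 and 408 CPM, the erythroid list to 96.8 and 119 CPM, the list for connective tissue and cartilage to 5418 and 4243 CPM and the epithelial list to 258 and 350 CPM. In the same order of lists, the genes called higher and lower numbered 0 and 3, 1 and 0, 0 and 2, and 4 and 0. The skeletal muscle list had 1 gene called higher and 3 lower, with a summed log2 ratio of -0.14. The part of these cell types in the members' differences was not tested. In a bulk sample, fewer cells of a type and less RNA per cell cannot be told apart.

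Upstream of the array the same domain holds 20 other plus-strand miRNA genes from the start of Meg3 on, 6 of them antisense to Rtl1. Of the other 14, called the Meg3 and Rian side here, 2 lie in Meg3 as annotated, 7 between Meg3 and Rian, 4 in Rian and 1 after it. The miRNAs antisense to Rtl1 pair perfectly with the Rtl1 message and are known for directing its cleavage. Of those 6, 5 were detected and Mir432 had no count. They held 8.82% ± 0.0848 of all gene counts, against 22.4% ± 0.680 for the array (SD, n = 2), but the median level of their detected genes was higher, 7071 CPM in library 1 and 7853 CPM in library 2. Mir127 led them with 43840 and 44955 CPM, followed by Mir431 (29294 and 27990 CPM) and Mir433 (6946 and 7853 CPM). Of the 14 on the Meg3 and Rian side, 10 were detected. They held 2.64% ± 0.305, with a median of 2117 and 2267 CPM, and were led by Mir540 (5571 and 7545 CPM), Mir337 (5707 and 6587 CPM) and Mir493 (4326 and 4550 CPM), which all lie between the annotated Meg3 and Rian.

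Set against these sets, the array's counts were 2.50-fold and 2.57-fold those of the genes antisense to Rtl1 and 9.04-fold and 8.01-fold those of the Meg3 and Rian side. The array held 66.2% of the counts of the 3 sets in library 1 and 66.1% in library 2. Between the libraries, the Meg3 and Rian side had 7 of its 10 detected genes called higher and none lower, beside 28.7% and 26.9% over all detected genes, with a summed log2 ratio of 0.21 (0.20 to 0.23). Of the 5 detected genes antisense to Rtl1, 3 were called higher and 2 lower. The difference between the sets was not tested, since both libraries enter every set and genes are not replicates.

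**Figure D5:**
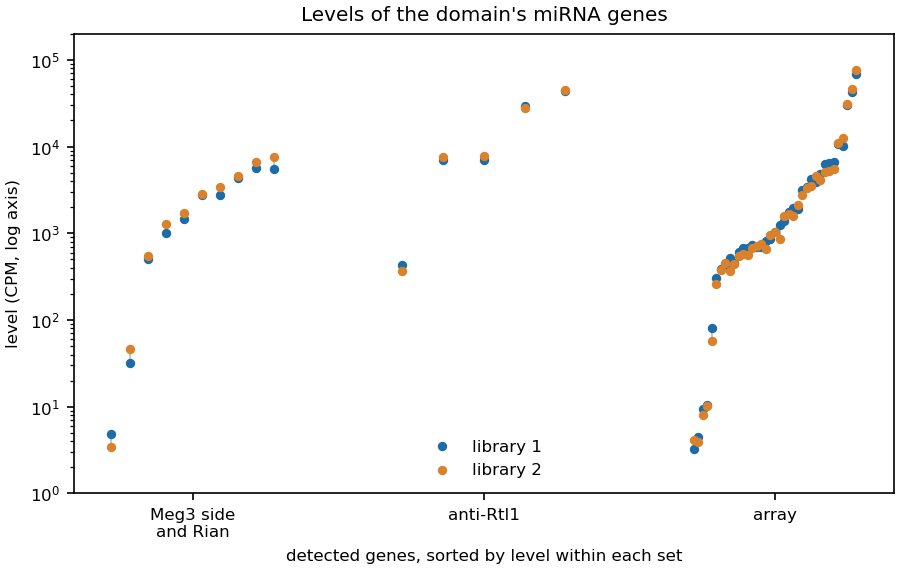
Levels in CPM on a log axis of the detected genes on the Meg3 and Rian side (10), antisense to Rtl1 (5) and in the array (37), with a point for each gene and library. The array spans the widest range of levels, from 3.69 CPM (Mir1197) to 73057 CPM (Mir411) on average, and the genes antisense to Rtl1 have the highest median.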

How the data were processed

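The authors deposited whole-number counts per miRNA gene for each library, on mm10 and GENCODE M21, per the labels and the notes beside the tables. For the aligner and the counter, names and settings are not given in sources used here. The own-strand column was used. The 4 lines that name no gene (multimapping 36.9% and 37.6%, unmapped 8.03% and 9.26%, no feature 1.70% and 2.09%, ambiguous 0%) stayed out of totals. All identifiers matched GENCODE M21.

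CPM, SD and exact 95% intervals were computed in Python 3.11.15 with scipy 1.17.1. For log2 levels, 0.5 CPM was added. Scaling used TMM in edgeR 4.0.16 over detected genes, with DESeq2 1.42.0 size factors, plain totals and TMM over all counted genes as alternatives. TMM was first run over all counted genes; restricting it to detected genes, as in the earlier analysis of these data, was decided after both sets of calls had been seen. With single libraries and no replicated contrast, edgeR's quasi-likelihood test has no residual degrees of freedom, so a counting test was used. It was checked on simulated counts that held counting error only. That check cannot show how the test behaves with spread between animals or libraries. Other alternatives were the unstranded column, other detection levels, pseudocounts of 0.1 and 5 CPM and each library alone. Sequences come from RefSeq, shared runs from GENCODE M21 transcripts, folding from RNAfold 2.7.2. The members and lists were chosen with earlier results of these data known. Values in both libraries are given for the 15 highest members, those not detected, any past 1.5-fold, the highest and lowest detected gene of each family and the 3 highest of each comparison set. Other members were named after their values were seen.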

Additional observations from a re-analysis of the deposited data

Results flagged for a closer look

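Mir299b, the miRNA gene on the opposite strand at the place of Mir299a, lies outside the rule. Counts on the strand opposite to Mir299a numbered 12 in library 1 and 11 in library 2. Both exceed 3 counts, the most that a reading of 0 would leave room for. They lie in the opposite-strand column of Mir299a, which was not used. The same reads are the own-strand counts of Mir299b, which is one of the 335 detected genes. Mir299a itself had 35761 and 22693 own-strand counts. The other 4 counted genes opposite to members (Gm25750, Gm25252, Gm44322 and Gm24321) had 0 counts in both libraries.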

How the results depend on the processing

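The array's share of 22.4% ran from 21.9% to 22.8% with each library alone. It was 23.1% in the unstranded column and 11.7% over all reads. With the members that share 18 or more bases, Mir411 and Mir487b among them, taken out of both the array and the total, it was 10.9%. Detected members numbered 33 in the unstranded column, without Mir380, Mir376a, Mir539 and Mir409, 34 at 10 CPM and 37 at 1 count. The log2 ratio of Mir299a changed sign in the unstranded column, where the gene had 14 and 24 counts against 35761 and 22693 own-strand counts. Mir299a, Mir380, Mir376a, Mir539 and Mir409 are the members with another counted gene on the opposite strand. The median log2 level of 10.01 became 9.72 unstranded and ran from 9.92 to 10.03 with each library alone. The log2 ratio of the total (0.04) was 0.01 with DESeq2 size factors, 0.06 with totals, 0.05 unstranded, -0.0034 without Mir411 and -0.03 with TMM over all counted genes. The cause of these moves was not tested. The 5 highest members held 84.0% unstranded and 74.3% to 77.9% with each library alone. Calls were 8 higher and 19 lower with DESeq2, 11 and 17 with totals, 11 and 18 at 10 CPM, 10 and 18 at 1 count, 9 and 14 unstranded and 7 and 23 with TMM over all counted genes. Of the 15 highest members, 12 moved by over 1 SD unstranded. The unstranded gene total was smaller, 4868965 against 5569392 in library 1 and 3823162 against 4336759 in library 2. This raises the CPM of genes that keep their counts. No paired analysis was possible because the series has 1 group.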
